A study of Arabidopsis with 12 samples.

Results

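The measurements describe how the Fe label of a library changed gene expression in the Arabidopsis thaliana mutant pad4 compared with wild type, that is, the genotype by Fe label interaction. The value for each locus is the label effect in pad4 (libraries labelled -Fe minus libraries labelled +Fe) minus the same label effect in wild type, on log2(FPKM + 1), where FPKM is a fragment count scaled by transcript length and by the mapped fragments of the library. A positive interaction means that the step towards the -Fe label was more upward, or less downward, in pad4. Every locus with at least 1 FPKM in at least 3 of the 12 libraries was included, which left 20173 of the 28693 loci in the expression table.

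Seedlings of pad4 (phytoalexin deficient 4) and of the Col-0 wild type (WT) were germinated on agar and kept for 7 d on complete medium (+Fe) or on the same medium lacking Fe (-Fe), at 24 °C with 16 h of light and 8 h of darkness. For every group the labels also give a seedling age of 7 d and a light intensity of 140 µmol per m2 per s. The groups were pad4 labelled -Fe, pad4 labelled +Fe, WT labelled -Fe and WT labelled +Fe, with 3 libraries each, and nothing in the labels says that these came from separate cultures, so p-values measure only the spread between these libraries. The labels give neither the pad4 allele nor a 2nd mutant line among the sequenced samples. They disagree on the tissue, which is given as shoot, as leaves and roots, and as whole seedlings.

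PAD4 encodes a lipase-like protein that acts with its partner EDS1 in plant immunity. The pair promotes the accumulation of salicylic acid, which NPR1 and TGA transcription factors turn into expression of pathogenesis-related (PR) genes, and jasmonate and ethylene signalling are known to counter parts of that output. In Fe-deficient plants a set of basic helix-loop-helix factors, among them bHLH38, bHLH39, bHLH100 and bHLH101, is induced, while ferritin genes are repressed.

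Expression of PAD4 (AT3G52430, chromosome 3, 19431371 to 19434403 on TAIR10, as are all positions given here) was 12.2, 10.8 and 10.3 FPKM in pad4 labelled -Fe and 13.6, 11.1 and 13 FPKM in pad4 labelled +Fe, against 19.5, 18.1 and 21.1 FPKM in WT labelled -Fe and 22, 19.6 and 21.3 FPKM in WT labelled +Fe. Every pad4 library lay below every WT library, and the interaction for the gene itself was -0.07 ± 0.13 (SE, adjusted p = 0.773). The Fe-status genes went against the labels in both genotypes. The Fe-deficiency regulator bHLH100 (AT2G41240) was at 0.122 to 0.563 FPKM in pad4 labelled -Fe and at 1042 to 1137 FPKM in pad4 labelled +Fe, and at 0.42 to 0.666 FPKM in WT labelled -Fe and 976 to 1033 FPKM in WT labelled +Fe. The ferritin gene FER1 (AT5G01600) showed the opposite, with 271 to 311 FPKM in pad4 labelled -Fe and 10.5 to 11.1 FPKM in pad4 labelled +Fe. The groups are therefore called by their labels throughout, and no direction below is one of low or sufficient Fe.

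The 12 libraries summed to between 894824 and 1004002 FPKM and each held 19096 to 19311 loci at 1 FPKM or more. Replicates correlated at r = 0.980 to 0.992 across the tested loci. In each group the library that correlated least with its 2 replicates was pad4 labelled -Fe 3, pad4 labelled +Fe 2, WT labelled -Fe 2 and WT labelled +Fe 2. Of 11 root markers, 4 averaged 1 FPKM or more, and their median was 0.538 FPKM. The summed FPKM of the 11 was 35 to 39.4 in pad4 labelled -Fe and 24 to 34.1 in pad4 labelled +Fe, against 25 to 33.6 in WT labelled -Fe and 23.2 to 29.9 in WT labelled +Fe, and SCR and SHR, averaging 19.6 and 6.31 FPKM, made up most of it. The summed FPKM of 3 green tissue markers was 13421 to 20507 in pad4 labelled -Fe and 6272 to 8471 in pad4 labelled +Fe, against 10549 to 15353 in WT labelled -Fe and 6709 to 8565 in WT labelled +Fe, and its part in the results was not tested.

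Of the 20173 loci, 2957 (14.7%) passed in the interaction at an adjusted p under 0.05, 1427 (7.07%) with a higher and 1530 (7.58%) with a lower label effect in pad4. At 1 log2 unit or more, 703 loci (3.48%) passed, 293 (1.45%) higher and 410 (2.03%) lower. The median interaction was -0.01 over all tested loci, the 5th and 95th percentiles were -0.73 and 0.67, and its median standard error was 0.16. Without the 4 libraries that correlated least with their replicates, 4074 loci were called, and 85.6% of the 2957 were among them with the same sign. These libraries were chosen for that low correlation, so leaving them out can by itself narrow the spread between replicates. Calls gained in this way, here and below, are therefore no added support.

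Most of the called loci differed between the genotypes on the -Fe side of the label. The difference between pad4 and WT passed only in libraries labelled -Fe for 1962 (66.4%) of the 2957, and only in libraries labelled +Fe for 288 (9.74%). Over all tested loci this difference passed for 27.9% in libraries labelled -Fe (13.5% higher in pad4 and 14.4% lower) and for 9.35% in libraries labelled +Fe (3.69% higher and 5.66% lower). Read the other way, the label effect passed in both genotypes with opposite signs for 374 called loci (12.6%), of which 215 were lower in pad4. It passed with the same sign but was larger in pad4 for 587 loci (19.9%) and larger in WT for 494 (16.7%). For 820 loci (27.7%) it passed in pad4 but not in WT, and for 674 (22.8%) in WT but not in pad4. Over all tested loci the label effect passed for 57.4% in pad4 (26.3% higher and 31% lower) and for 51.9% in WT (25.2% higher and 26.7% lower). The genome-wide label effects in the genotypes, which share no library, correlated at r = 0.78 across loci.

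**Figure D1:**
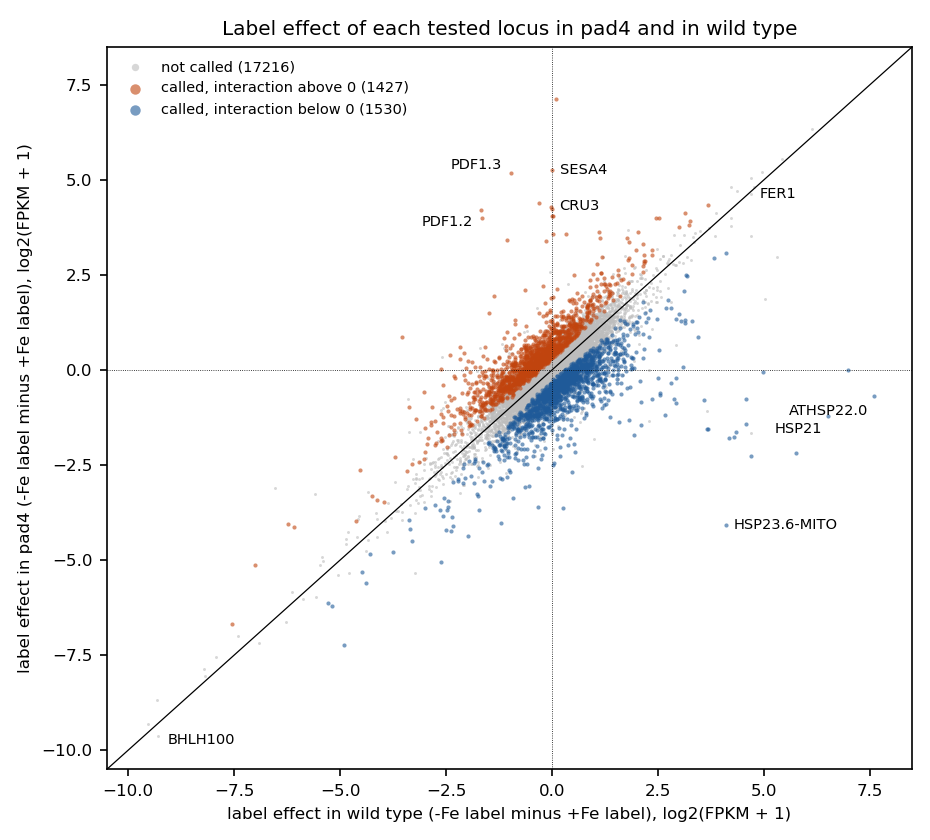
Label effect (libraries labelled -Fe minus libraries labelled +Fe, log2(FPKM + 1)) of each of the 20173 tested loci in wild type on the horizontal axis and in pad4 on the vertical axis. Points on the diagonal have an interaction of 0. Heat shock genes lie far to the lower right, seed storage and defensin genes lie above the diagonal, near or below 0 in wild type, and the Fe-status genes BHLH100 and FER1 lie close to the diagonal.

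Gene groups were compared as 36 lists, with the background above as the yardstick. The largest shares of called members were in the small heat shock proteins (14 of 14 tested, all lower), the heat shock factors and chaperones (12 lower and 2 higher of 16), sugar starvation genes (3 higher and 5 lower of 11), the jasmonate and ethylene defensin branch (9 higher and 0 lower of 13), and genes of abscisic acid synthesis, breakdown and phosphatases (2 higher and 9 lower of 16). Seed markers (3 of 3 higher) and N-hydroxypipecolic acid genes (2 of 2 lower) had few members, and the seed markers passed the filter on low values only through the pad4 libraries labelled -Fe, so their direction was fixed by that filter.

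**Figure D2:**
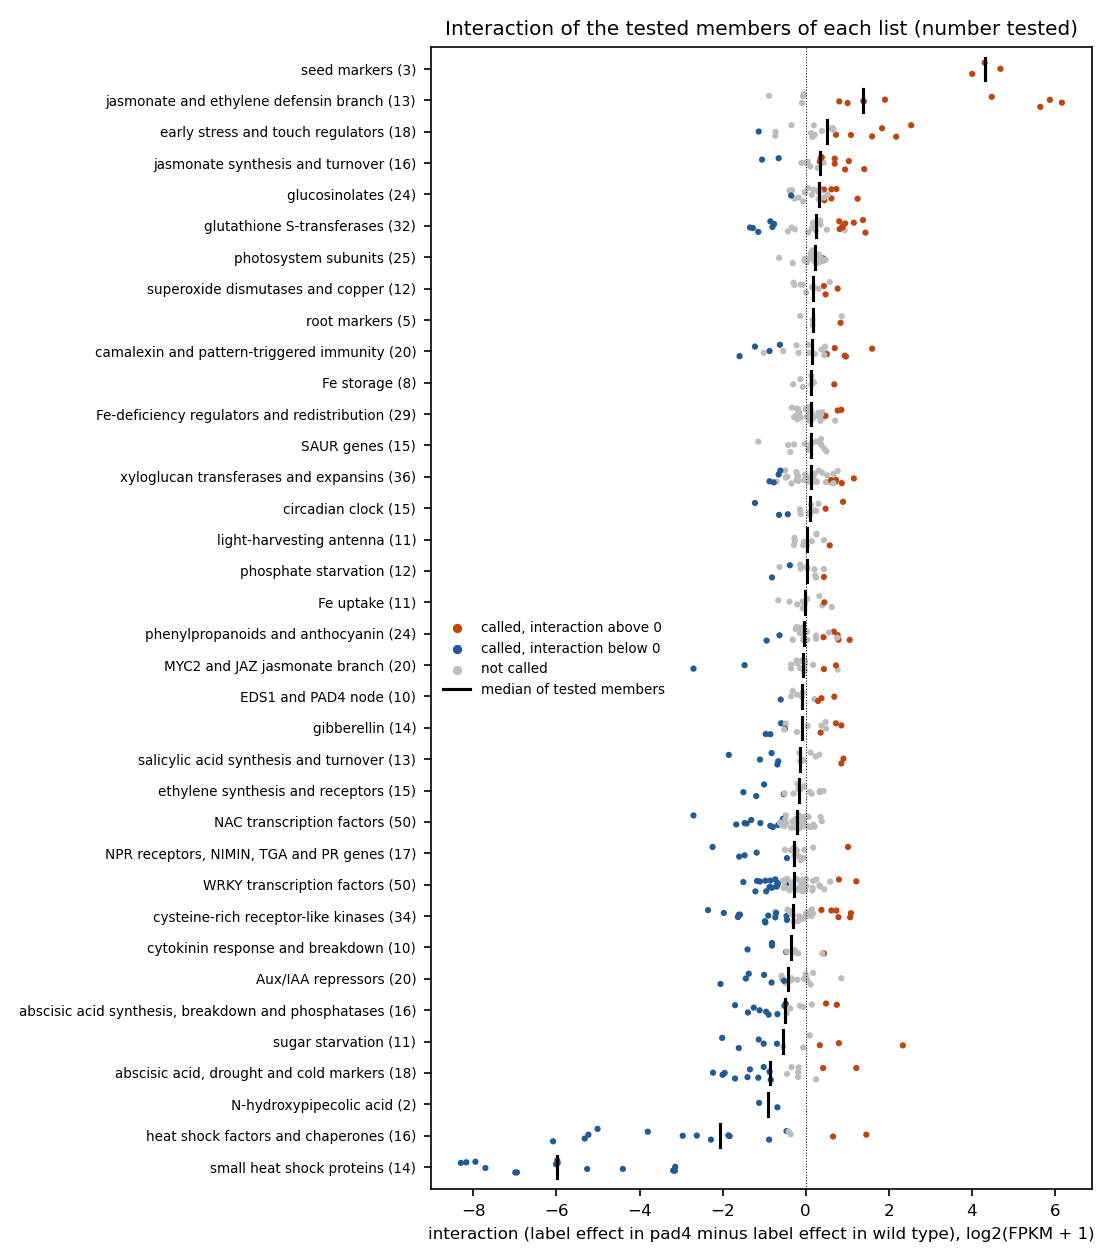
Interaction (label effect in pad4 minus label effect in wild type, log2(FPKM + 1)) of the tested members of 36 gene lists, ordered by list median, with the number tested in brackets. Each point is a gene, orange where called with an interaction above 0, blue where called below 0 and grey where not called, and black bars are medians. The small heat shock proteins have a median of -5.99, the seed markers 4.31 and the defensin branch 1.39, and most other medians lie within 1 log2 unit of 0.

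Heat shock proteins gave the largest interactions in the data set. Small heat shock proteins bind unfolding proteins and hold them for refolding by the HSP70 and HSP101 machines. All 14 listed genes were lower in pad4 than in WT under the -Fe label. The median of the 14 genes was -5.99, made of a median label effect of -1.49 in pad4 and 4.26 in WT. The label effect passed as lower in pad4 for 13 of the 14 (31% of all tested loci) and as higher in WT for 13 of the 14 (25.2% of all tested loci).

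ATHSP22.0 (AT4G10250, chromosome 4, 6370343 to 6371291), an endoplasmic reticulum member of the family, had 0.354, 0.635 and 0.327 FPKM in pad4 labelled -Fe and 1.36, 1.47 and 1.13 FPKM in pad4 labelled +Fe, against 239, 274 and 247 FPKM in WT labelled -Fe and 0.296, 0.316 and 0.288 FPKM in WT labelled +Fe. WT labelled -Fe stood far above the other 3 groups, and the interaction was -8.30 ± 0.14 (adjusted p = 6.73e-11). The mitochondrial HSP23.6-MITO (AT4G25200) was detected everywhere, at 8.14, 7.73 and 9.86 FPKM in pad4 labelled -Fe and 144, 189 and 148 FPKM in pad4 labelled +Fe, against 677, 883 and 661 FPKM in WT labelled -Fe and 37.3, 48.5 and 40.4 FPKM in WT labelled +Fe. No 2 groups overlapped. Its label effect was -4.07 in pad4 and 4.10 in WT, so the gene moved by similar amounts in opposite directions (interaction -8.17 ± 0.21, adjusted p = 1.21e-09).

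The plastid HSP21 (AT4G27670) was at 0.087, 0 and 0.0817 FPKM in pad4 labelled -Fe and 1.15 to 2 FPKM in pad4 labelled +Fe, against 183 to 230 FPKM in WT labelled -Fe and 0.956 to 1.52 FPKM in WT labelled +Fe (interaction -7.71 ± 0.21). The cytosolic HSP17.4, HSP18.2, HSP17.6II and HSP17.6A gave -6.95, -6.99, -5.98 and -5.26, and AT1G53540, annotated in the table as an hsp20/alpha crystallin family protein, gave -7.95. These cytosolic genes are close paralogs, and how the counting divided reads between near-identical copies is not given in the sources used here. The other 6 members lay between -6.01 and -3.14. HSP18.2 was the member with no label effect called in pad4 (-0.01, adjusted p = 0.974), and AT5G51440, annotated as a mitochondrial heat shock 22 kDa protein, the one with none called in WT (0.47, adjusted p = 0.143).

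Hsp70b (AT1G16030), a cytosolic HSP70, had 5.19, 4.55 and 6.64 FPKM in pad4 labelled -Fe and 18.5, 25.1 and 19.4 FPKM in pad4 labelled +Fe, against 247, 295 and 226 FPKM in WT labelled -Fe and 11.4, 13.2 and 11 FPKM in WT labelled +Fe (interaction -6.08 ± 0.21, adjusted p = 8.77e-09). HSA32 (AT4G21320), needed for the maintenance of acquired thermotolerance, was at 7.99, 9.17 and 7.87 FPKM in pad4 labelled -Fe and 9.02, 7.22 and 9.65 FPKM in pad4 labelled +Fe, with no label effect called (-0.04, adjusted p = 0.878). In WT it had 153, 118 and 183 FPKM labelled -Fe against 4.21, 2.63 and 4.69 FPKM labelled +Fe. APX2, a cytosolic ascorbate peroxidase known as a heat-inducible gene, and GolS1, which makes galactinol, followed with interactions of -5.32 and -5.23. For both genes WT labelled -Fe was the highest group and pad4 labelled -Fe the lowest. APX2 had 33 to 38.3 FPKM in WT labelled -Fe and at most 1.47 FPKM in every other library. It passed the filter on low values only through the WT libraries labelled -Fe, so its direction was fixed by that filter.

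The disaggregase gene HSP101 had 214 ± 30.3 FPKM in pad4 labelled -Fe and 290 ± 33.8 FPKM in pad4 labelled +Fe (SD, n = 3 here and below), against 408 ± 46.3 FPKM in WT labelled -Fe and 113 ± 11 FPKM in WT labelled +Fe (interaction -2.28). HSP90.1 and HSP70 gave -2.62 and -2.96. Among the heat shock transcription factors the pattern was mixed. HSFA2, an amplifier of the heat response, had only -0.46 (adjusted p = 0.0391), with 111 ± 7.22 and 125 ± 11.7 FPKM in pad4 labelled -Fe and +Fe against 76.7 ± 4.19 and 63 ± 6.57 FPKM in WT labelled -Fe and +Fe. The repressor-class gene HSF4 (HSFB1) gave -1.86, whereas AT-HSFB2B gave 1.46, with 19.9 ± 2.57 and 25.4 ± 3.09 FPKM in pad4 labelled -Fe and +Fe against 3.36 ± 0.411 and 14.3 ± 2.52 FPKM in WT labelled -Fe and +Fe.

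Every annotation text of the table was also scanned, a choice made after the values were seen. Of 19 tested loci annotated as DnaK family proteins, that is, HSP70 chaperones, 15 were called lower and 0 higher, and of 18 annotated as hsp20/alpha crystallin family proteins 14 were called lower and 2 higher (ACD32.1 and AT4G21870). BIP2 (AT5G42020), an HSP70 of the endoplasmic reticulum, had 155, 140 and 165 FPKM in pad4 labelled -Fe and 142, 158 and 147 FPKM in pad4 labelled +Fe, against 683, 711 and 620 FPKM in WT labelled -Fe and 176, 186 and 185 FPKM in WT labelled +Fe (interaction -1.83 ± 0.11). BIP1 gave -1.64, again with WT labelled -Fe above all other libraries, and its sequence is close to that of BIP2. BIP3 (-0.92) differed in profile, with 0.787 to 1.13 FPKM in pad4 labelled -Fe and 2.17 to 2.52 FPKM in pad4 labelled +Fe, against 5.22 to 5.91 FPKM in WT labelled -Fe and 4.52 to 5.08 FPKM in WT labelled +Fe. For all of these transcripts, fewer cells with the transcript and less transcript per cell cannot be told apart in bulk RNA.

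**Figure D3:**
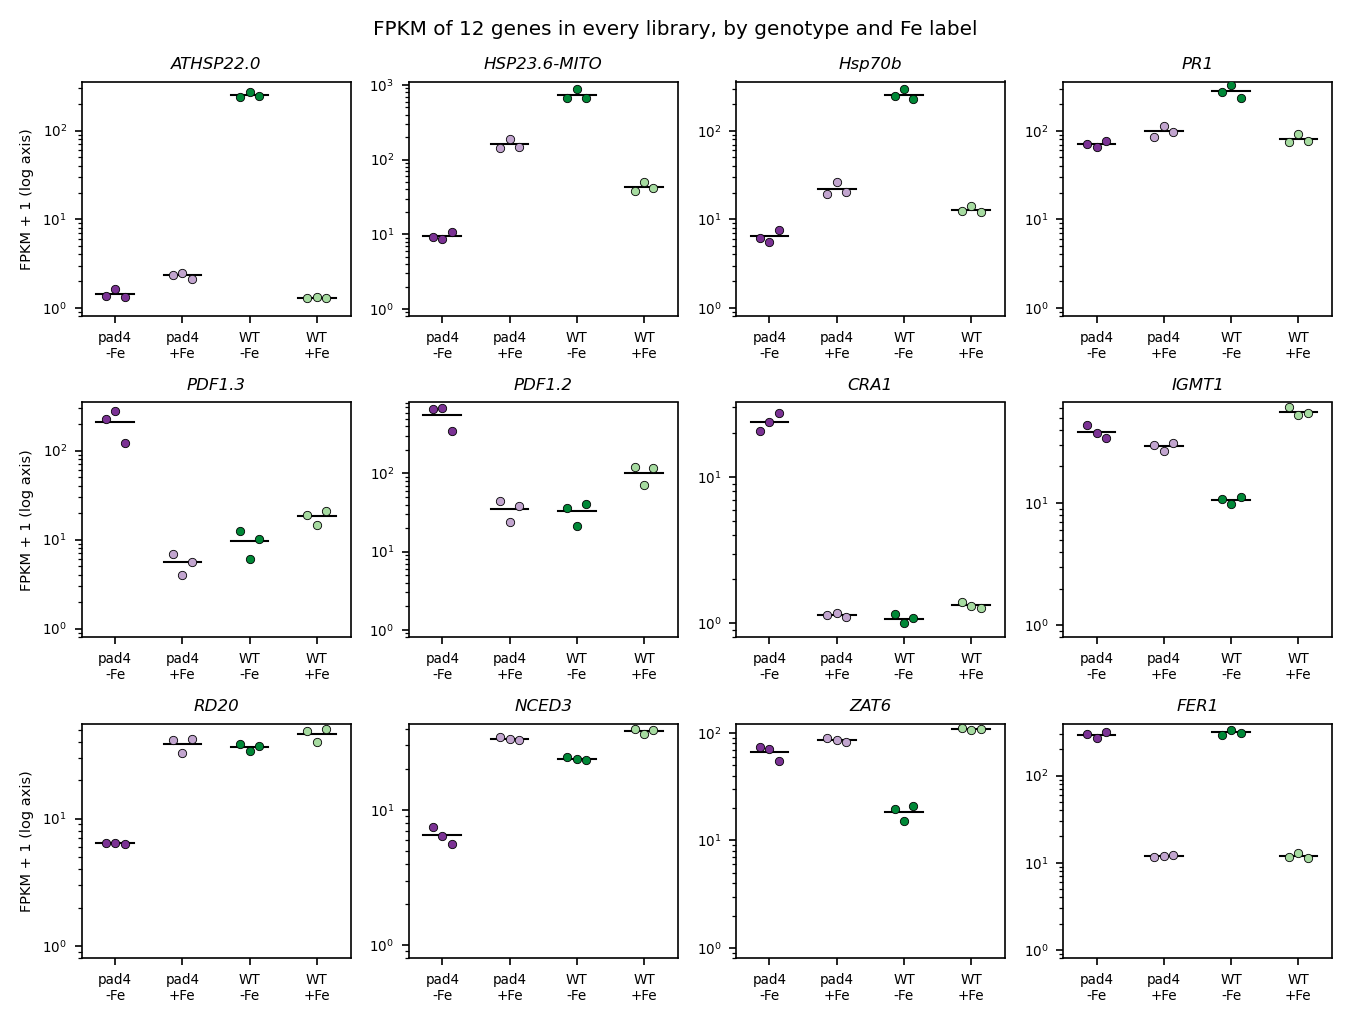
FPKM + 1 on a log axis of 12 genes in every library, with pad4 labelled -Fe and +Fe left of WT labelled -Fe and +Fe. Points are libraries and bars are the mean of the 3 libraries. The heat shock genes and PR1 are highest in WT labelled -Fe, PDF1.3, PDF1.2 and CRA1 are highest in pad4 labelled -Fe, RD20 and NCED3 are lowest in pad4 labelled -Fe, IGMT1 and ZAT6 are lowest in WT labelled -Fe, and FER1 follows the label alike in both genotypes.

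Seed storage transcripts set the pad4 libraries labelled -Fe apart. The cruciferin gene CRA1 (AT5G44120, an embryo storage protein) had 19.6, 22.8 and 26.5 FPKM in pad4 labelled -Fe and 0.138, 0.169 and 0.105 FPKM in pad4 labelled +Fe, against 0.148, 0 and 0.0781 FPKM in WT labelled -Fe and 0.391, 0.314 and 0.279 FPKM in WT labelled +Fe. Its interaction was 4.69 ± 0.16 (adjusted p = 8.77e-09). CRU3, another cruciferin, had 17.2 to 20.6 FPKM in pad4 labelled -Fe and was listed at 0 in all other libraries but one WT library labelled +Fe, at 0.039 FPKM. The napin-type albumin gene SESA4 was at 32.8, 44.2 and 36.8 FPKM in pad4 labelled -Fe and listed at 0 in the other 9 libraries, and SESA3 showed the same at 15.1 to 23.7 FPKM. The oil body genes OLEO1 and OLEO2 reached 13.2 to 19.4 and 8.7 to 11.1 FPKM in pad4 labelled -Fe, against at most 0.144 and 0.261 FPKM elsewhere. These genes passed the filter on low values only through the pad4 libraries labelled -Fe.

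SESA2 had another profile, with 21.1 to 25.7 FPKM in pad4 labelled -Fe and 11.8 to 13.6 FPKM in pad4 labelled +Fe, against 0 in all 3 WT libraries labelled -Fe and 10.2 to 10.8 FPKM in WT labelled +Fe. The SESA genes are similar tandem copies, and a 0 here may be an estimate that failed, so the SESA2 values are uncertain. Summed over the 4 seed markers CRA1, CRU3, OLEO1 and SESA1, the level was 52.5 to 67.5 FPKM in pad4 labelled -Fe and 0.273 to 0.91 FPKM in pad4 labelled +Fe, against 0.0823 to 0.222 FPKM in WT labelled -Fe and 0.318 to 0.546 FPKM in WT labelled +Fe. This sum sets pad4 labelled -Fe above the other groups, as the levels of PDF1.2 and PDF1.3 below do. Within that group CRA1 was highest in pad4 labelled -Fe 3, where PDF1.2 and PDF1.3 were lowest. An order among 3 libraries is too short to relate these genes to each other. The part of the seed transcripts in the other interactions was not tested.

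In the salicylic acid pathway most called genes had a lower label effect in pad4. Of 13 tested genes of salicylic acid synthesis and turnover, 5 were called lower and 2 higher (median -0.13). ICS1, listed as EDS16 (AT1G74710), makes the isochorismate from which most pathogen-induced salicylic acid derives. It had 13.9, 11.3 and 14.8 FPKM in pad4 labelled -Fe and 16.3, 17.2 and 15.7 FPKM in pad4 labelled +Fe, against 28.1, 29.3 and 28.7 FPKM in WT labelled -Fe and 21.4, 22.5 and 21.5 FPKM in WT labelled +Fe. No 2 groups overlapped, and the interaction was -0.66 ± 0.12 (adjusted p = 0.00419). The exporter gene EDS5 had -0.05 ± 0.13 (adjusted p = 0.85), a value whose sign turned in some of the alternatives. PBS3, which conjugates isochorismate to glutamate, had -0.68 (adjusted p = 0.0479), and this call ended in 16 of 20 alternatives.

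Genes listed for the turnover of salicylic acid went both ways. AT4G10500, annotated in the table as a putative naringenin,2-oxoglutarate 3-dioxygenase, had 5.37, 4.51 and 6.2 FPKM in pad4 labelled -Fe and 5.37, 4.47 and 5.5 FPKM in pad4 labelled +Fe, against 22.7, 23.9 and 22 FPKM in WT labelled -Fe and 5.95, 4.72 and 5.59 FPKM in WT labelled +Fe. Only WT labelled -Fe stood apart, and the interaction was -1.85 ± 0.16 (adjusted p = 2.07e-05). DMR6, which hydroxylates salicylic acid, gave -0.82. The glucosyltransferase gene UGT74F2 moved the other way, with 16.1 to 17.7 FPKM in pad4 labelled -Fe and 11 to 11.5 FPKM in pad4 labelled +Fe, against 7.53 to 8.88 FPKM in WT labelled -Fe and 9.66 to 11.3 FPKM in WT labelled +Fe (interaction 0.86, adjusted p = 0.000379). ICS2, the minor isochorismate synthase gene, gave 0.91, with 2.89 to 3.14 FPKM in WT labelled +Fe and at most 1.67 FPKM in every other library.

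Among the 17 tested genes of the NPR receptors, NIMIN proteins, TGA factors and PR proteins, 5 were called lower and 1 higher (median -0.27). PR1 (AT2G14610), the standard marker of salicylic acid output, had 69.3, 65 and 75.1 FPKM in pad4 labelled -Fe and 83.1, 112 and 97.1 FPKM in pad4 labelled +Fe, against 272, 332 and 236 FPKM in WT labelled -Fe and 73.1, 91.5 and 76.7 FPKM in WT labelled +Fe. WT labelled -Fe lay above every other library, and the interaction was -2.24 ± 0.20 (adjusted p = 2.2e-05). BGL2 (PR2, a beta-1,3-glucanase) gave -1.60, with 39.3, 29.8 and 40.4 FPKM in pad4 labelled -Fe against 139, 177 and 138 FPKM in WT labelled -Fe. PR5, a thaumatin-like protein, did not pass (-0.21, adjusted p = 0.376).

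NIMIN1 and NIMIN-2, small proteins that bind NPR1, gave -1.47 and -1.18. NIMIN-2 had 15.4 to 17.4 FPKM in pad4 labelled -Fe and 9.96 to 11.7 FPKM in pad4 labelled +Fe, against 48 to 55.5 FPKM in WT labelled -Fe and 13.8 to 15.9 FPKM in WT labelled +Fe, so its label effect passed in both genotypes and was larger in WT. NPR1 itself had -0.28 ± 0.21 (adjusted p = 0.412). PCC1, a small salicylic acid-responsive gene, was the exception in the list at 1.02 (adjusted p = 0.0252), with 131 ± 11.8 and 30.3 ± 5.04 FPKM in pad4 labelled -Fe and +Fe against 209 ± 19.6 and 102 ± 32.4 FPKM in WT labelled -Fe and +Fe.

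FMO1 and ALD1, which make N-hydroxypipecolic acid, the mobile signal of systemic acquired resistance, were both called lower. FMO1 had 6.47, 5.98 and 5.18 FPKM in pad4 labelled -Fe and 3.53, 3.38 and 3.87 FPKM in pad4 labelled +Fe, against 15.2, 14.1 and 16.2 FPKM in WT labelled -Fe and 4.01, 3.55 and 4.41 FPKM in WT labelled +Fe (interaction -1.12 ± 0.14, adjusted p = 0.000286). The libraries labelled +Fe overlapped between the genotypes, and those labelled -Fe did not. ALD1 gave -0.68 (adjusted p = 0.0265), a call that ended in 7 of 20 alternatives, 6 of them with 1 library left out (either pad4 labelled +Fe 1 or 3, WT labelled -Fe 1 or 2, or WT labelled +Fe 1 or 3).

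In the 10-gene EDS1 and PAD4 node, 1 gene was called lower and 3 higher (median -0.08), and 2 genes were called without WT labelled +Fe 1 or without WT labelled +Fe 3. EDS1 (AT3G48090) had 30.4, 27.9 and 34.8 FPKM in pad4 labelled -Fe and 40.8, 42.2 and 40.1 FPKM in pad4 labelled +Fe, against 48.5, 61.8 and 51.8 FPKM in WT labelled -Fe and 45.1, 50.2 and 44.7 FPKM in WT labelled +Fe (interaction -0.60 ± 0.14, adjusted p = 0.0157). The helper receptor gene ADR1-L2 was called higher at 0.69 ± 0.10, with 40.8 to 44.3 FPKM in pad4 labelled -Fe and 42.1 to 47.5 FPKM in pad4 labelled +Fe, against 28 to 31.7 FPKM in WT labelled -Fe and 49.4 to 52.6 FPKM in WT labelled +Fe. SAG101, the alternative partner of EDS1, did not pass (-0.35, adjusted p = 0.0688) and was called with the replicate block and without WT labelled +Fe 2.

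WRKY transcription factors and cysteine-rich receptor-like kinases, both large defence-related families, leaned to lower values. Of 50 tested WRKY genes 15 were called lower and 2 higher (median -0.28), and 38 of the 50 values lay below 0. WRKY38, a salicylic acid-responsive repressor, had 1.19 to 1.39 FPKM in pad4 labelled -Fe and 1.45 to 2.13 FPKM in pad4 labelled +Fe, against 6.13 to 8.21 FPKM in WT labelled -Fe and 2.21 to 2.5 FPKM in WT labelled +Fe (interaction -1.50). WRKY70, a node between salicylic acid and jasmonate signalling, had 52.6, 54.8 and 50.7 FPKM in pad4 labelled -Fe against 98, 98.1 and 96.9 FPKM in WT labelled -Fe. Its interaction of -0.47 (adjusted p = 0.0177) missed the threshold without WT labelled +Fe 1 (adjusted p = 0.0541) or 3 (0.0501). WRKY26, known from heat responses, was called higher at 1.22.

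Of 34 tested cysteine-rich receptor-like kinases, 12 were called lower and 6 higher. CRK36 (-2.35), CRK38 (-1.63) and CRK39 (-1.61) were lowest in pad4 labelled -Fe, for example at 8.49, 8.02 and 11 FPKM of CRK36, with 28.1 to 52.7 FPKM in every library of the other groups. CRK7 had another profile, being high in WT labelled -Fe at 22.8 to 28.4 FPKM, with 4.12 to 8.02 FPKM in every other library (interaction -1.97). CRK6 gave -1.58, and here pad4 lay below WT under both labels, with 8.71 ± 0.0922 FPKM in pad4 labelled -Fe against 79.9 ± 2.45 FPKM in WT labelled -Fe. The family therefore held different profiles with a negative interaction, among them a low pad4 labelled -Fe group and a high WT labelled -Fe group.

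**Figure D4:**
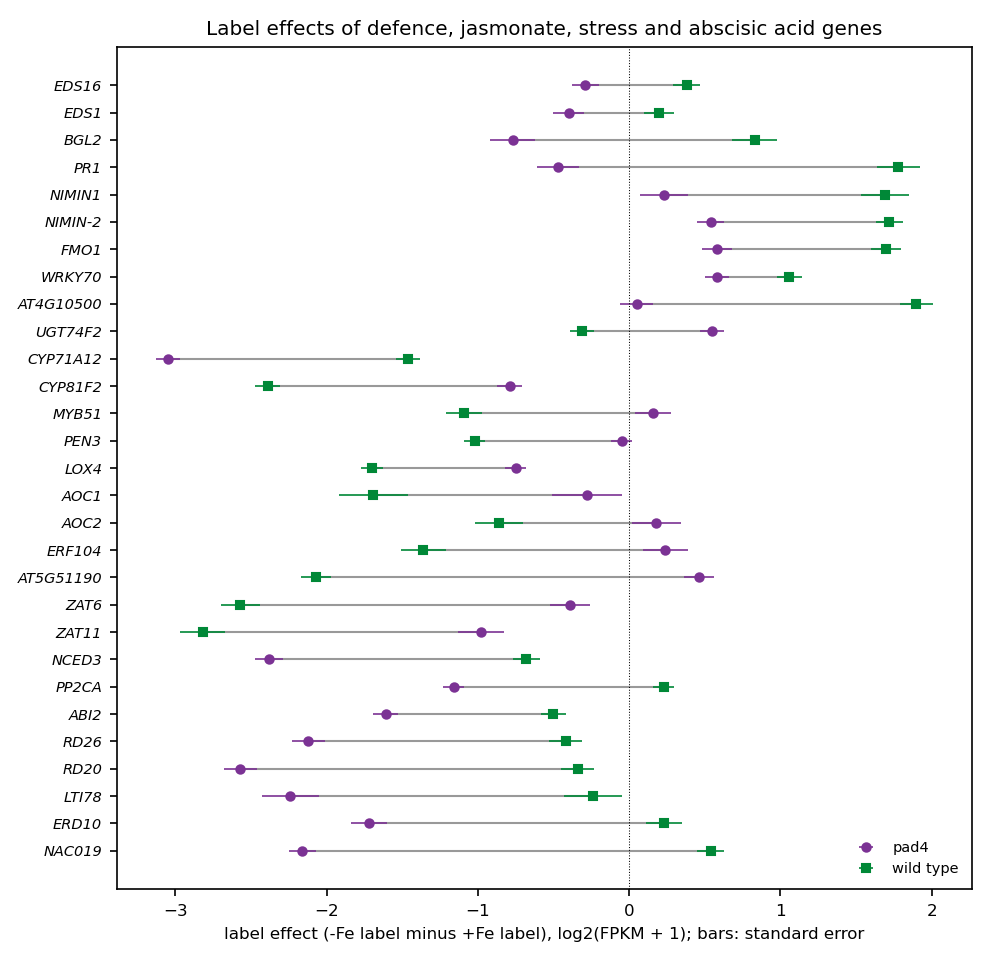
Label effect (libraries labelled -Fe minus libraries labelled +Fe, log2(FPKM + 1), with standard error) of 29 named genes in pad4 (purple circles) and in wild type (green squares). Grey lines join the genotypes, so their length is the size of the interaction. In the genes from EDS16 to AT4G10500 wild type lies to the right, in the indole, jasmonate and early stress genes from CYP81F2 to ZAT11 it lies to the left, and in the abscisic acid genes from NCED3 to NAC019 pad4 lies far to the left.

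Of 20 tested genes of camalexin synthesis and pattern-triggered immunity, 5 were called higher and 4 lower (median 0.15). CYP71A12 and PAD3, which take part in the synthesis of camalexin, the main phytoalexin of Arabidopsis, were both called lower. CYP71A12 had 3.81, 4.08 and 4.91 FPKM in pad4 labelled -Fe and 42.8, 42 and 42.7 FPKM in pad4 labelled +Fe, against 14.4, 14.9 and 15.5 FPKM in WT labelled -Fe and 43.2, 44.4 and 40.8 FPKM in WT labelled +Fe (interaction -1.59 ± 0.11, adjusted p = 3.62e-06). Libraries labelled +Fe overlapped between the genotypes, and the label effect passed as lower in both. PAD3 gave -0.87. FRK1, a flagellin-induced kinase gene, gave -1.22, with 9.41 to 13.3 FPKM in pad4 labelled -Fe against 43.9 to 50.4 FPKM in WT labelled -Fe.

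Among the genes of the same list called higher was CYP81F2, a monooxygenase that modifies indole glucosinolates for defence. It had 61.3, 51.3 and 53.4 FPKM in pad4 labelled -Fe and 93.6, 97.6 and 96.5 FPKM in pad4 labelled +Fe, against 31.4, 29.5 and 26.9 FPKM in WT labelled -Fe and 160, 159 and 154 FPKM in WT labelled +Fe (interaction 1.60 ± 0.11, adjusted p = 2.92e-06). The groups did not overlap, and the pad4 groups lay between the WT groups. PEN2 and PEN3, the myrosinase and transporter of that defence, gave 0.70 and 0.97, and PEN3 had 556 to 588 FPKM in pad4 labelled -Fe and 581 to 620 FPKM in pad4 labelled +Fe, against 358 to 378 FPKM in WT labelled -Fe and 722 to 784 FPKM in WT labelled +Fe. MYB51, an activator of indole glucosinolate synthesis, gave 1.25, and WT labelled -Fe at 38.8 to 52 FPKM lay below every other library, which held 70.9 to 107 FPKM.

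In the scan of annotation texts, of 8 loci annotated as O-methyltransferases 5 were called higher, and all 5 are the indole glucosinolate O-methyltransferase genes IGMT1 to IGMT5. IGMT1 (AT1G21100) had 42.8, 36.5 and 33.3 FPKM in pad4 labelled -Fe and 28.9, 26 and 29.9 FPKM in pad4 labelled +Fe, against 9.8, 8.79 and 10.2 FPKM in WT labelled -Fe and 59.9, 52.1 and 53.7 FPKM in WT labelled +Fe. WT labelled -Fe was the lowest group and WT labelled +Fe the highest, without overlap (interaction 2.80 ± 0.14). IGMT3, IGMT4, IGMT2 and IGMT5 gave 2.08, 1.84, 0.95 and 0.81, and IGMT1 to IGMT4 are neighbouring copies with similar sequences.

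Over the glucosinolate list as a whole, 6 of 24 tested genes were called higher and 1 lower (median 0.31). The aliphatic chain elongation gene MAM1 gave 0.62, with 112 to 131 FPKM in pad4 labelled -Fe against 64.3 to 79.3 FPKM in WT labelled -Fe. The count of 7 fell to 3 without pad4 labelled +Fe 2, WT labelled +Fe 1 or WT labelled +Fe 3, and to 4 without pad4 labelled +Fe 3. Glutathione S-transferases, which attach glutathione to electrophiles, were called in both directions, with 8 higher and 6 lower of 32. GSTF3 and GSTU13 gave 1.44 and 1.38, and GSTU3 and GSTU9 gave -1.34 and -1.27.

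Jasmonate genes divided into a defensin branch, a synthesis group and the MYC2 branch. In the branch that jasmonate and ethylene activate together through the factor ORA59, 9 of 13 tested genes were called higher and 0 lower, with a median of 1.39. The 4 genes not called all lay below 0, the lowest at -0.88. PDF1.3 (AT2G26010, chromosome 2), a plant defensin, had 226, 280 and 121 FPKM in pad4 labelled -Fe and 5.94, 3.05 and 4.68 FPKM in pad4 labelled +Fe, against 11.6, 5.02 and 9.3 FPKM in WT labelled -Fe and 18.1, 13.6 and 20.1 FPKM in WT labelled +Fe. Its label effect passed as higher in pad4 (5.19) and as lower in WT (-0.97, adjusted p = 0.03), with an interaction of 6.17 ± 0.48 (adjusted p = 7.56e-06).

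PDF1.2 (AT5G44420), the usual marker of this branch, had 674, 680 and 344 FPKM in pad4 labelled -Fe and 42.9, 22.6 and 37.4 FPKM in pad4 labelled +Fe, against 35.3, 20.2 and 40 FPKM in WT labelled -Fe and 119, 69.4 and 116 FPKM in WT labelled +Fe (interaction 5.65 ± 0.49, adjusted p = 2.01e-05). Pad4 labelled -Fe 3 was lower than its replicates and still above every library of the other groups. PDF1.2c and PDF1.2b gave 5.88 and 4.48, and over 20 alternatives PDF1.2, PDF1.2c and PDF1.3 kept values of at least 5.36. The PDF1 genes are near-identical copies, so their separate levels are uncertain. PR4 and HCHIB (PR3), a hevein-like protein and a basic chitinase, gave 1.39 and 1.01. PR4 had 743 ± 87.3 and 126 ± 5.99 FPKM in pad4 labelled -Fe and +Fe against 327 ± 22.5 and 146 ± 9.72 FPKM in WT labelled -Fe and +Fe, so it was higher under the -Fe label in both genotypes.

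The factor gene ORA59 gave 0.81, with 6.49 ± 0.659 and 5.72 ± 0.696 FPKM in pad4 labelled -Fe and +Fe against 6.08 ± 0.714 and 10.1 ± 0.642 FPKM in WT labelled -Fe and +Fe, and pad4 labelled -Fe was not its highest group. ERF6, an ethylene response factor, gave 1.91, with 25.2 to 33.7 FPKM in pad4 labelled -Fe and 70.8 to 77 FPKM in pad4 labelled +Fe, against 9.12 to 11.3 FPKM in WT labelled -Fe and 101 to 108 FPKM in WT labelled +Fe. ERF5 was also called higher, and for both genes WT labelled -Fe was the lowest group.

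Of 16 tested genes of jasmonate synthesis and turnover, 8 were called higher and 2 lower (median 0.35). LOX4, a 13-lipoxygenase that starts the pathway, had 36.1, 33.5 and 29.9 FPKM in pad4 labelled -Fe and 56.1, 56.5 and 56.4 FPKM in pad4 labelled +Fe, against 20.2, 19.6 and 18.9 FPKM in WT labelled -Fe and 67.9, 66.3 and 63.5 FPKM in WT labelled +Fe (interaction 0.95 ± 0.10, adjusted p = 7.96e-05). The label effect was negative in both genotypes and smaller in pad4. The allene oxide cyclase genes AOC1 and AOC2 gave 1.41 and 1.04, and their neighbour AOC3 went the other way at -0.65. How the counting divided reads between these neighbouring genes is not given in the sources used here. The allene oxide synthase gene AOS gave 0.70. CYP94C1, which oxidises jasmonoyl-isoleucine, was called lower at -1.05.

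In the MYC2 and JAZ branch, which jasmonate activates in wounding, 2 of 20 tested genes were called higher and 2 lower (median -0.06), and 16 of the 20 values lay below 0. The storage protein gene VSP2, a marker of this branch, gave 0.73, with 9.92 to 11.5 FPKM in pad4 labelled -Fe and 19 to 21.3 FPKM in pad4 labelled +Fe, against 8.32 to 10.4 FPKM in WT labelled -Fe and 27.6 to 32.8 FPKM in WT labelled +Fe. NAC019, a target of both MYC2 and abscisic acid, was the most negative member. It had 6.47, 6.35 and 5.51 FPKM in pad4 labelled -Fe and 30.6, 27.3 and 34.7 FPKM in pad4 labelled +Fe, against 41.2, 43.2 and 46 FPKM in WT labelled -Fe and 29.4, 28.7 and 30.8 FPKM in WT labelled +Fe (interaction -2.70 ± 0.13, adjusted p = 1.48e-07).

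Abscisic acid and drought genes were called lower more often than higher. Of 16 tested genes of abscisic acid synthesis, breakdown and phosphatases, 9 were called lower and 2 higher (median -0.49), and of 18 tested drought and cold markers 10 were called lower and 2 higher (median -0.86). NCED3, the rate-limiting enzyme of stress-induced abscisic acid synthesis, had 6.52, 5.38 and 4.58 FPKM in pad4 labelled -Fe and 33.4, 32.2 and 32.1 FPKM in pad4 labelled +Fe, against 23.5, 22.7 and 22.3 FPKM in WT labelled -Fe and 38.5, 35.3 and 37.8 FPKM in WT labelled +Fe (interaction -1.70 ± 0.13, adjusted p = 8.9e-06). Its label effect passed as lower in both genotypes.

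The type 2C protein phosphatases, negative regulators of abscisic acid signalling that abscisic acid itself induces, were called lower in all 7 cases tested in the list, and of 54 tested loci annotated as protein phosphatase 2C 15 were called lower and 0 higher. PP2CA had 20, 18.3 and 18 FPKM in pad4 labelled -Fe and 40.3 to 46.5 FPKM in pad4 labelled +Fe, against 52.3 to 55.7 FPKM in WT labelled -Fe and 45.8 to 47.4 FPKM in WT labelled +Fe (interaction -1.39 ± 0.10). ABI2, ABI1, HAB1 and HAI1 gave -1.11, -0.95, -0.89 and -1.25. CYP707A3, which inactivates abscisic acid, was called higher at 0.75.

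Among the markers, RD20 (AT2G33380), a caleosin, had 5.49, 5.48 and 5.37 FPKM in pad4 labelled -Fe and 40.4, 31.5 and 40.9 FPKM in pad4 labelled +Fe, against 37.5, 32.8 and 36 FPKM in WT labelled -Fe and 47.7, 39 and 49.4 FPKM in WT labelled +Fe. Pad4 labelled -Fe lay below all other libraries, and the other 3 groups overlapped in part (interaction -2.23 ± 0.16, adjusted p = 4.21e-06). ERD10 and RD26 gave -1.95 and -1.70, and LTI78 (RD29A) had 27, 24.1 and 36 FPKM in pad4 labelled -Fe against 136, 189 and 124 FPKM in WT labelled -Fe. In each of the 3 pad4 labelled -Fe was the only group below the other 3 without overlap. COR15B, a chloroplast protein of cold acclimation, was called higher at 1.22, with 11 ± 1.46 and 7.04 ± 1.23 FPKM in pad4 labelled -Fe and +Fe against 15.6 ± 0.932 and 24.8 ± 2.84 FPKM in WT labelled -Fe and +Fe.

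NAC transcription factors leaned the same way, with 10 of 50 tested genes called lower and 0 higher (median -0.22) and 42 of the 50 values below 0. Besides NAC019, its relative NAC3 (ANAC055) gave -1.47 and NAC047 gave -1.42. NAC3 was low in pad4 labelled -Fe, at 1.02 to 1.66 FPKM against 5.09 to 5.37 FPKM in WT labelled -Fe.

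Early stress and touch regulators were called higher in 6 and lower in 1 of 18 tested genes (median 0.51), and 11 were called without the 4 libraries that correlated least with their replicates. The zinc finger gene ZAT6 had 73.5, 69.3 and 53.6 FPKM in pad4 labelled -Fe and 89.4, 85.9 and 80.8 FPKM in pad4 labelled +Fe, against 18.7, 14.3 and 19.7 FPKM in WT labelled -Fe and 110, 106 and 109 FPKM in WT labelled +Fe (interaction 2.18 ± 0.18, adjusted p = 1.32e-05). AT5G51190, annotated as an AP2 domain containing protein, had 16.8 to 20.8 FPKM in pad4 labelled -Fe and 12.4 to 14.6 FPKM in pad4 labelled +Fe, against 3.16 to 3.9 FPKM in WT labelled -Fe and 17.4 to 19 FPKM in WT labelled +Fe (interaction 2.54 ± 0.14, adjusted p = 4.34e-07). ZAT11 and ERF104 gave 1.84 and 1.60. In all 4 genes WT labelled -Fe was the lowest group.

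Of 15 tested genes of ethylene synthesis and receptors, 4 were called lower and 0 higher (median -0.17). ACS2, which makes the ethylene precursor, had 0.497, 0.488 and 0.188 FPKM in pad4 labelled -Fe and 9.98, 9.59 and 8.62 FPKM in pad4 labelled +Fe, against 2.14, 1.59 and 1.97 FPKM in WT labelled -Fe and 6.61, 7.16 and 6.26 FPKM in WT labelled +Fe (interaction -1.50). EBF2, an F-box protein that marks ethylene signalling factors for breakdown, was called lower, with 60.6 to 73.8 FPKM in pad4 labelled -Fe against 116 to 145 FPKM in WT labelled -Fe.

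Aux/IAA repressors, which are early auxin-induced genes, were called lower in 6 and higher in 0 of 20 (median -0.42). IAA5 had 5.2, 5.54 and 4.65 FPKM in pad4 labelled -Fe and 7.76 to 8.93 FPKM in pad4 labelled +Fe, against 12.7, 18.4 and 12.5 FPKM in WT labelled -Fe and 4.16 to 5.57 FPKM in WT labelled +Fe (interaction -2.05 ± 0.20). The SAUR genes, another auxin-induced family, had 0 of 15 called by limma, while SAUR15 at -1.14 (adjusted p = 0.0956) was called without pad4 labelled -Fe 3, without WT labelled +Fe 2 and without the 4 libraries that correlated least.

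Gibberellin genes were called higher in 3 and lower in 4 of 14. The last synthesis step, GA3OX1, gave -0.96, with 4.58 to 5.02 FPKM in pad4 labelled -Fe against 11.2 to 13.3 FPKM in WT labelled -Fe, and the gibberellin-inactivating GA2OX2 gave 0.73. The count of 7 fell to 4 without pad4 labelled +Fe 3 and to 3 without WT labelled +Fe 1. GASA4, a gibberellin-regulated peptide, gave 0.86. Of 10 cytokinin genes 4 were called lower and 1 higher, among them the response regulator gene ARR7 (-0.81), and the count of 5 fell to 2 or 3 without any of 8 of the 12 libraries.

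Sugar starvation genes, which carbon shortage and darkness induce, were called in 8 of 11, 3 higher and 5 lower (median -0.54). AT2G33830, annotated as an auxin-repressed protein, had 583, 587 and 389 FPKM in pad4 labelled -Fe and 46.6, 40 and 49.8 FPKM in pad4 labelled +Fe, against 113, 67 and 110 FPKM in WT labelled -Fe and 50.5, 33.1 and 46.1 FPKM in WT labelled +Fe (interaction 2.34 ± 0.32, adjusted p = 0.000611). AT3G15450, annotated as stem-specific protein TSJT1, gave -2.01, and its levels were 115 to 136 FPKM in pad4 labelled -Fe and 48.3 to 54.9 FPKM in pad4 labelled +Fe, against 61.9 to 68.6 FPKM in WT labelled -Fe and 5.34 to 6.22 FPKM in WT labelled +Fe. Here pad4 exceeded WT under both labels, and the difference was larger under the +Fe label. Clock genes were called in 5 of 15, 2 higher and 3 lower, and in 2 or 3 without any of 7 of the 12 libraries. ELF4, an evening complex gene, gave 0.90, and PRR7, a daytime repressor, gave -1.22.

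Most Fe genes followed the label in both genotypes. Of 11 Fe uptake genes 1 was called, of 29 Fe-deficiency regulators and redistribution genes 3, and of 8 Fe storage genes 1, all higher. These shares of 9.09%, 10.3% and 12.5% lie near the 14.7% of all tested loci, given so few members. The regulators count fell to 1 without any of pad4 labelled -Fe 1, pad4 labelled +Fe 2, WT labelled -Fe 1, WT labelled +Fe 1 or WT labelled +Fe 3, and was 6 without the 4 libraries that correlated least, when 4074 of the 20173 loci were called. The uptake count ranged from 0 to 2 and the storage count from 0 to 1 over the alternatives.

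For bHLH100 the label effect was -9.64 in pad4 and -9.31 in WT (interaction -0.33 ± 0.16, adjusted p = 0.221). BHLH101, bHLH39 and bHLH38 had interactions of -0.28 ± 0.17, 0.16 ± 0.13 and 0.36 ± 0.16, none of which passed, although bHLH38 was called without the 4 libraries that correlated least (0.42, adjusted p = 0.0336). IRT1 and FRO2, the Fe transporter and ferric reductase of the root surface, had 0.33 ± 0.14 (adjusted p = 0.151) and -0.20 ± 0.12 (adjusted p = 0.316). IRT1 was at 3.95 to 5.12 FPKM in pad4 labelled +Fe and at 5.36 to 6.19 FPKM in WT labelled +Fe, with at most 0.0682 FPKM in libraries labelled -Fe. FER1 had -0.07 ± 0.11 (adjusted p = 0.706). Missing the threshold does not show that the genotypes respond alike.

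NAS1, a nicotianamine synthase that makes an Fe chelator, had 36.7, 35.8 and 33.4 FPKM in pad4 labelled -Fe and 33.4, 35.2 and 35.2 FPKM in pad4 labelled +Fe, against 34.8, 34 and 32.6 FPKM in WT labelled -Fe and 59.6, 59.6 and 53.1 FPKM in WT labelled +Fe (interaction 0.77 ± 0.09, adjusted p = 0.000241). WT labelled +Fe was the only group that stood apart. FRD3, which loads citrate into the xylem, gave 0.45, with 12.3 to 13.1 FPKM in pad4 labelled +Fe against 19.4 to 21.2 FPKM in WT labelled +Fe. Its call ended without WT labelled +Fe 1 (adjusted p = 0.0595), with a pseudocount of 0.1 (0.0565) and without the 4 libraries that correlated least (0.0568). NAS4 gave 0.48 (adjusted p = 0.034), and its call ended without any of 7 of the 12 libraries. For AT1G47400, which has no annotation text, the call at 0.86 (adjusted p = 0.0492) ended in 15 of 20 alternatives. In the storage list AT3G25190, annotated as an integral membrane protein, was called at 0.69, with 5.46 to 7.18 FPKM in pad4 labelled -Fe and at most 0.0673 FPKM in pad4 labelled +Fe, against 3.32 to 3.85 FPKM in WT labelled -Fe and at most 0.0615 FPKM in WT labelled +Fe, so its label effect was larger in pad4. The call of AT3G25190 ended with a pseudocount of 0.1 (adjusted p = 0.231) and without the 4 libraries that correlated least (0.0695). FRU (FIT), the master regulator of Fe uptake in roots, was low at 0.456 to 3.41 FPKM and did not pass (-0.66, adjusted p = 0.0813), except without WT labelled +Fe 2.

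Copper and superoxide dismutase genes gave 3 of 12 called, all higher, and 1 without pad4 labelled -Fe 1 or without WT labelled +Fe 3. The copper chaperone gene CCH gave 0.48 and the copper transporter gene COPT2 gave 0.77. COPT2 had 2.07 to 3.45 FPKM in pad4 labelled -Fe and 7.63 to 9.91 FPKM in pad4 labelled +Fe, against 2.49 to 2.94 FPKM in WT labelled -Fe and 15.1 to 16.2 FPKM in WT labelled +Fe. Its call ended without pad4 labelled -Fe 1 (adjusted p = 0.052), without WT labelled +Fe 3 (0.056) and without the 4 libraries that correlated least (0.101). Of 12 phosphate starvation genes 3 were called, 1 higher and 2 lower, with PHT1;4, a phosphate transporter, at -0.81.

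Phenylpropanoid and anthocyanin genes were called higher in 5 and lower in 2 of 24 (median -0.04). Of the 24 values 11 lay above 0 and 13 below. TT7 (flavonoid 3'-hydroxylase) was called higher at 0.77, as was AT4G14090, annotated as a UDP-glucosyltransferase, at 1.06. AT4G14090 had 3.54 to 5.18 FPKM in pad4 labelled -Fe and 10.7 to 11.5 FPKM in pad4 labelled +Fe, against 3.16 to 3.36 FPKM in WT labelled -Fe and 17.6 to 19.1 FPKM in WT labelled +Fe. MYB90, an anthocyanin activator, was called lower at -0.94.

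Most photosynthesis genes rose with the -Fe label in both genotypes. In the antenna list 10 of 11 passed as higher in pad4 and 10 of 11 in WT, and in the photosystem list 22 of 25 in each. In the interaction 1 of 11 (9.09%) and 1 of 25 (4%) were called, both higher, against 14.7% of all tested loci. Of the antenna values 6 lay above 0 and 5 below (median 0.03), and of the photosystem values 21 above and 4 below (median 0.22). Both lists are short, and missing the threshold does not show that the genotypes respond alike. Without the 4 libraries that correlated least, 2 and 8 were called, and the photosystem count was 0 without pad4 labelled +Fe 3 or without WT labelled +Fe 1 and 2 without pad4 labelled +Fe 2. LHCB2.3 gave 0.58, with 131 to 159 FPKM in pad4 labelled -Fe and 62.1 to 71.6 FPKM in pad4 labelled +Fe, against 36.8 to 43.5 FPKM in WT labelled -Fe and 25.8 to 28.2 FPKM in WT labelled +Fe, so pad4 lay above WT under both labels.

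Cell wall loosening genes, the xyloglucan transferases and expansins, were called higher in 6 and lower in 4 of 36 (median 0.12). XTH4 gave 0.87, with 455, 381 and 408 FPKM in pad4 labelled -Fe and 187 to 219 FPKM in the 9 other libraries. The count of 10 fell to 6 without WT labelled -Fe 1 or without WT labelled +Fe 1.

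Outside the lists, 383 annotation texts were carried by at least 8 tested loci each, and 24 of them had at least 30% of their loci called higher and 15 at least 30% called lower. This scan was a description made after the values were seen. Among the transport families, 5 of 11 nodulin MtN3 (SWEET sugar efflux) loci, 6 of 13 purine permeases and 15 of 44 loci of the transporter family text were called higher, with 0, 0 and 1 called lower. SWEET12 (AT5G23660), which exports sucrose in leaves, had 73.5, 70.3 and 63.2 FPKM in pad4 labelled -Fe and 17.6 to 20.9 FPKM in pad4 labelled +Fe, against 23.4 to 26.5 FPKM in WT labelled -Fe and 16.3 to 17.8 FPKM in WT labelled +Fe (interaction 1.27 ± 0.12). Of 46 peroxidase precursor loci 14 were called higher and 2 lower, among them Prx37 at 1.54, and of 16 jacalin-like lectin loci 6 were called higher and 0 lower. On the other side, 5 of 11 reticuline oxidase-like and 4 of 8 mitochondrial chaperone BCS1 loci were called lower, with 1 and 0 higher.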

How the data were processed

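The authors' deposited table gives FPKM for 28693 loci in 12 libraries, and per the submitters' processing notes the build is TAIR10. Neither an aligner nor a counting tool is named in what was available. Merged loci (354) were kept out of lists and named genes, 630 loci carry no gene name, and 1003 genes have several rows. RefSeq matched 27048 of 27709 single-gene rows. Absolute depth is unknown. Relative depth, from the spacing of low values, spanned 0.57 to 0.993. In pad4 it was 0.57 to 0.732 labelled -Fe and 0.807 to 0.953 labelled +Fe. In WT it was 0.664 to 0.841 labelled -Fe and 0.763 to 0.993 labelled +Fe. Precision therefore rests on the spread of the replicates.

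A floor of 1 FPKM in 3 or more libraries left 20173 loci. These were tested on log2(FPKM + 1) with limma (version 3.58.1, R 4.3.3, moderated with a trend), using 1 mean per group. Tests were two-sided, with Benjamini-Hochberg adjustment over all 20173 loci and a threshold of 0.05. Adding 1 makes changes of low genes look smaller. All FPKM values of a library share its total, and the part of it taken by 1 merged locus followed the label. In pad4 this part was 2.52 to 5.89% labelled -Fe and 7.38 to 14% labelled +Fe. In WT it was 3.83 to 6.18% labelled -Fe and 13.5 to 13.9% labelled +Fe. Its bearing on the interactions was not tested. In 105 loci, 64 of them tested, a listed 0 occurred beside 5 FPKM or more.

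The lists and the contrast were chosen with earlier results of these data known, so lists are described by counts and medians. Named genes were the 12 most positive and 12 most negative called genes with a symbol whose highest group averaged 5 FPKM or more, the 8 largest with opposite label effects, up to 4 called members of each list (or, with none called, the most abundant one), and a set from PAD4 to FER1. Other named genes, such as HSFA2, HSP101, ORA59, AOS, PAD3, PEN2, DMR6, PCC1, ABI1, CRK6, AT5G51440, AT4G21870, ACD32.1, BIP2, BIP3 and the IGMT genes, were chosen after their values were seen. Alternatives were no filter, quantile normalization, median centring, no trend, a pseudocount of 0.1, a replicate block, leaving out each library, the 4 libraries that correlated least or the loci with such zeros, and a size threshold. The replicate numbers were not shown to pair the libraries.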

Additional observations from a re-analysis of the deposited data

Results flagged for a closer look

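The genes given here were taken from the 2957 loci called in the interaction, so that it passed in each was fixed by the choice. They are the 8 with the largest interactions among those with a symbol whose label effects passed in both genotypes with opposite signs. The heat shock genes were ATHSP22.0 (-8.30), HSP23.6-MITO (-8.17), HSP21 (-7.71), HSP17.4 (-6.95), Hsp70b (-6.08) and HSP17.6II (-5.98), in which the libraries labelled -Fe were lower than those labelled +Fe in pad4 and higher in WT. The defensin genes PDF1.3 (6.17) and PDF1.2c (5.88) went the other way in both genotypes.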

How the results depend on the processing

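The 2957 called loci (1427 higher, 1530 lower) became 703 (293 higher, 410 lower) when 1 log2 unit was also required. Leaving out 1 library at a time gave 2052 to 3251 calls, 981 to 1602 higher and 1071 to 1649 lower. The fit with a replicate block gave 2929 calls (1412 higher, 1517 lower) and kept 91.4% of the 2957. Same-numbered libraries correlated at -0.42 to 0.51 after removal of group means, above 0.1 in 10 of 18 pairs, and the best match of a library carried its own number in 4 of 12 cases, so pairing was not shown. The 9 same-numbered pairs among the groups other than pad4 labelled -Fe lay at 0.12 to 0.51. Pad4 labelled -Fe 3 correlated with library 2 of those groups at 0.42 to 0.51. The replicate block grouped libraries by number, so it did not cover that match. No filter gave 3023 calls, no trend 2920, a pseudocount of 0.1 2886 and the removal of loci with doubtful zeros 2958. Quantile normalization gave 2980 (1487 higher, 1493 lower) and median centring 3007 (1524 higher, 1483 lower), so the larger side turned under centring. Over the alternatives other than the size threshold 68.9 to 99.6% of the 2957 stayed called, and 0 were called with the opposite sign. Of 130 called named genes 102 stayed called under all of these, 28 lost the call in at least 1 and 0 reversed. The exporter gene EDS5, not called, turned sign without the 4 libraries that correlated least (0.05), and lay between -0.13 and 0.02 with 1 library left out. The cause was not tested. Depth limits low genes, but FPKM give no absolute depth.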
